A study of Mus musculus with 19 samples.

Results

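The Zscan4 programme of 2-cell-like cells was followed through 9 genes, of 54119 genes in the table, chosen by name: Zscan4a, Zscan4b, Zscan4c, Zscan4d, Zscan4e and Zscan4f, Tcstv1 and Tcstv3, and Zfp352. Their RNA was measured in 19 libraries of mouse embryonic stem cells (mESC) and of epiblast-like cells (EpiLC) made from them. The study asked whether the dioxygenase TET3 is needed for that step. Values are TPM, transcripts per 1000000, which are scaled per length, and the TPM of all transcripts of a gene were summed.

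In mouse embryos the genome is first transcribed strongly at the 2-cell stage, and the Zscan4 genes, the Tcstv genes and Zfp352 belong to the transcripts of that stage. A small and changing share of cultured mESC switches the same genes on for a short time. In such cells the factor DUX, encoded by Duxf3, is a known activator, ZSCAN4 proteins are known for telomere lengthening by recombination, and TET enzymes, which oxidise 5-methylcytosine, have been described as restraining the state.

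All mESC were wild type or mutant cells kept in N2B27 with LIF and with inhibitors of GSK3 and MEK1/2. EpiLC had received FGF5 and Activin A without LIF for 5 days. The groups were 3 XX mESC and 3 XX EpiLC libraries of the wild-type LF2 line, and 3 XY mESC and 3 XY EpiLC libraries of the wild-type E14 line. To these came 4 Tet3-/- mESC and 3 Tet3-/- EpiLC libraries, labelled XX and LF2 as well. Below, XX alone stands for the wild-type XX libraries. Sex and cell line cannot be told apart, since each sex was represented by 1 line. The mutant mESC carry the numbers #1 to #4 and the mutant EpiLC the numbers #1, #3 and #4. The labels do not say whether the numbers are separate clones. They also do not say that replicates were separate cultures, so the p-values measure only the spread between these samples, which may be technical.

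TPM values hold no record of sequencing depth. Each library had 11128 to 13811 genes at 1 TPM or more, and nuclear protein-coding genes held 21.4% to 46.7% of TPM. The summed TPM of 10 naive pluripotency genes was 422 to 858 in mESC and 28.5 to 93.2 in EpiLC. Tet3 itself was at 0.761 ± 0.269 TPM (SD, n = 3) in XX mESC. In Tet3-/- mESC it was at 0.661 ± 0.174 TPM (SD, n = 4), and the ranges overlapped. In XX EpiLC it was at 1.65 ± 0.386 TPM (SD, n = 3). Tet3-/- EpiLC had 1.04 ± 0.363 TPM (SD, n = 3), again with overlapping ranges. A whole-gene TPM does not show which part of Tet3 was deleted, so these values do not check the genotype labels.

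Zscan4a to Zscan4f lie side by side on chromosome 7 (GRCm38, 10794242 to 11402318), Tcstv1 and Tcstv3 on chromosome 13 (119893388 to 119894785 and 120316878 to 120318178), and Zfp352 on chromosome 4 (90218820 to 90225702). The annotation lists Zscan4a as a pseudogene and the other 8 as protein-coding. The longest transcripts of the 6 Zscan4 copies were 96.6% to 99.7% identical over 15 pairs, with Zscan4c and Zscan4f at 99.6%. Of the 31-base words in a gene's transcripts, only 8.28% of those of Zscan4f and 4.77% of those of Zscan4b occurred in no other gene, against 35.0% for Zscan4d and 78.5% for Zfp352. The split of reads between the copies is therefore uncertain, and their sum is given first below.

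The sequence around the start sites of the Zscan4 copies shows how alike they are also outside the transcripts. RefSeq promoters (build GRCm38.p6, 250 bases before to 50 after the start) were found for 5 of the 9 members. Those of Zscan4b, Zscan4c, Zscan4d and Zscan4f share a stretch of 266 bases, printed 5′ to 3′ with the 13 positions that vary among the 4 in capitals.

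Zscan4f (chr7:11397699-11397964, plus strand): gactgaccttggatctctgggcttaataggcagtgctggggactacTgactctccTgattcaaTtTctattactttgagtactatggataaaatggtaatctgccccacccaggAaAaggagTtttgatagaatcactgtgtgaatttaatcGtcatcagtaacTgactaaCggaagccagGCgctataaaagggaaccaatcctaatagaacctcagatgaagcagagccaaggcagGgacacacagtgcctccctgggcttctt
Zscan4c (chr7:11005506-11005771, plus strand): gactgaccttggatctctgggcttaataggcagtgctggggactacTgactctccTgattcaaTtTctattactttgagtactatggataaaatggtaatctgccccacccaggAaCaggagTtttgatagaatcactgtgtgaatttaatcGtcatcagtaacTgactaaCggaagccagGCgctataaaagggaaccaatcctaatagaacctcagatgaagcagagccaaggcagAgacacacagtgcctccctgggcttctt
Zscan4d (chr7:11166133-11166398, minus strand): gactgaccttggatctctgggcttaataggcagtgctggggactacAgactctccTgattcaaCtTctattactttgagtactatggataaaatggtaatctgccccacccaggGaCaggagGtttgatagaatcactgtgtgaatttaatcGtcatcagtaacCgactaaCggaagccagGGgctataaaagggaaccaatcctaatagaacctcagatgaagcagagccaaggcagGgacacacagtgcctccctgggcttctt
Zscan4b (chr7:10905001-10905266, minus strand): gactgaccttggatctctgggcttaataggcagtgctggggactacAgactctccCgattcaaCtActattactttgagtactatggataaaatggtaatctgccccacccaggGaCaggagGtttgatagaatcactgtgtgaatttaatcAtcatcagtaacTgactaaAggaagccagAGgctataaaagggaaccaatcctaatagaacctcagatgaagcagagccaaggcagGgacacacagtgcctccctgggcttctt

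Zscan4c and Zscan4f, which carried most of the Zscan4 signal, differed at 2 of these positions, and Zscan4b differed from each of them at 11. The stretches held 1 to 3 CpG dinucleotides, against a median of 7 in 32851 promoters of 300 bases. The letters TATAAA, a core promoter box that positions the start of transcription, were found in all 4 of these promoters and not in that of Zfp352. Of all promoters 13.6% held them on either strand. The match began 31 bases before the annotated start in Zscan4b and Zscan4f, 54 before it in Zscan4c and 65 in Zscan4d. AAGGTCA, the half-site of receptors such as ESRRB, was in the same 4, on the other strand and without overlapping the former match, against 4.72% of all on either strand. Both matches lie in the shared stretch at bases that do not vary, so the 4 promoters are not separate observations. TGCACAC, letters known to be bound by ZSCAN4, was in none of the 5 promoters searched, and 4.4% of all promoters held it. Zfp352, a zinc finger gene, has a promoter of another make-up, in which ACAACACAC, in capitals, recurs 9 times at steps of 20 or 21 bases.

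Zfp352 (chr4:90218570-90218869, plus strand): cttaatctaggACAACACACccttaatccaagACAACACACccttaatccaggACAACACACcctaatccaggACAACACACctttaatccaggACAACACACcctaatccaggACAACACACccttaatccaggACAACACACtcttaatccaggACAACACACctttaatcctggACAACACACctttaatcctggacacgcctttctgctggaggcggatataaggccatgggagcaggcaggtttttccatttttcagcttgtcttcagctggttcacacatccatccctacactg

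Of all 32851 promoters, 40 (0.122%) held ACAACACAC at least once, and this one alone held it 5 or more times. Only the given strand was searched for it. A match is a description of these letters, not a site shown to be used.

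All members were low. Of 171 member values (9 genes in 19 libraries), 3 were at 1 TPM or more, all of Zscan4f in Tet3-/- libraries, and 42 were listed at 0. Zscan4f alone passed the filter for the test, which asks for 3 or more libraries at 1 TPM or above, and it passed only through Tet3-/- libraries. The other 8 have values and no main test.

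The Zscan4 sum of XX mESC was 0.949, 0.117 and 1.21 TPM in libraries 1 to 3, and that of XX EpiLC was 0.716, 0.584 and 0.71 TPM. The sum of XY mESC was 0.59, 0.524 and 0.872 TPM, and that of XY EpiLC was 0.0294, 0.309 and 0.132 TPM. The sum of Tet3-/- mESC was 3.52, 0.222, 0.122 and 3.02 TPM in #1 to #4, and that of Tet3-/- EpiLC was 1.93, 0.674 and 3.22 TPM in #1, #3 and #4. The Tet3-/- mESC libraries thus fell into a high and a low pair, 28.8-fold apart at the extremes, and the low pair lay at the level of the lowest XX library. These pairs were set by the measured Zscan4 level, and the share of all genes with the same pairs was not counted. Genes said below to have them are therefore only described. XX EpiLC libraries lay close together, and all XY EpiLC libraries lay below all XY mESC and all XX EpiLC libraries.

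**Figure D1:**
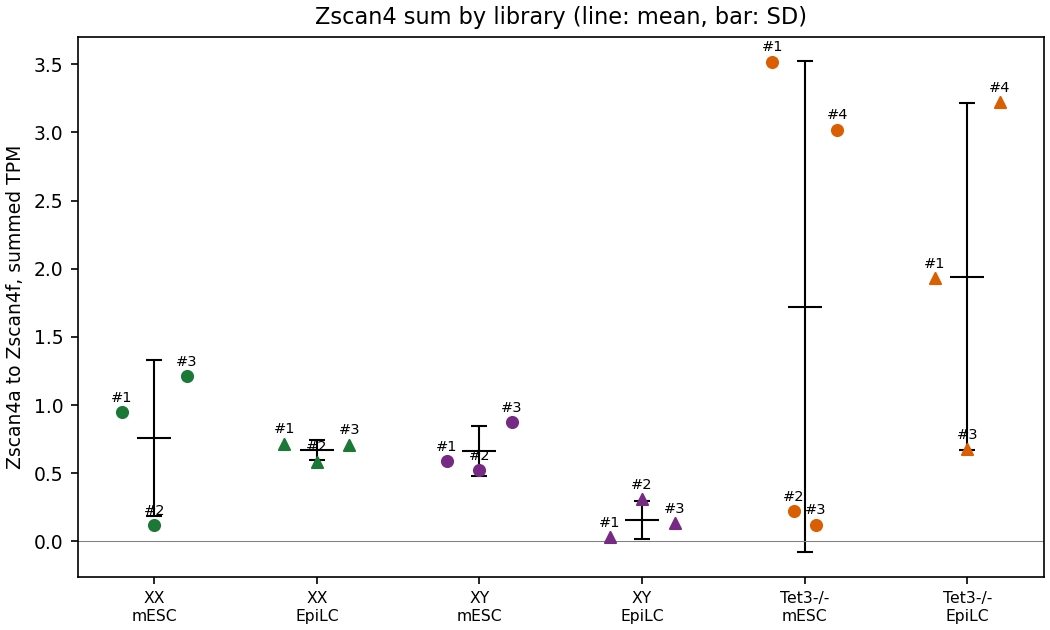
Summed TPM of Zscan4a to Zscan4f (vertical axis) for each of the 19 libraries in 6 groups, with replicate numbers, the mean as a line and the SD as a bar. The 4 highest libraries, from 1.93 to 3.52 TPM, are all Tet3-/-, while Tet3-/- mESC #2 and #3 are among the 5 lowest.

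By group mean the order of the Zscan4 sum was Tet3-/- EpiLC (1.94 ± 1.27 TPM, SD, n = 3), Tet3-/- mESC (1.72 ± 1.8, n = 4), XX mESC (0.76 ± 0.573, n = 3), XX EpiLC (0.67 ± 0.0748, n = 3), XY mESC (0.662 ± 0.185, n = 3) and XY EpiLC (0.157 ± 0.142, n = 3). Neighbours in this order overlapped, except XY mESC and XY EpiLC. In bulk samples fewer expressing cells and less RNA per cell cannot be told apart. Adding the 3 annotated Zscan4 pseudogenes raised the group means to between 0.229 and 2.42 TPM, with XY EpiLC still lowest and Tet3-/- EpiLC still highest.

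Zscan4f held 51.9% of the Zscan4 sum over all libraries, Zscan4c 18.3%, Zscan4d 13.7%, Zscan4e 7.82%, Zscan4a 5.65% and Zscan4b 2.68%, as the reads were assigned. Zscan4c is the copy most often studied in mESC, and Zscan4d the one best known from the 2-cell embryo. In Tet3-/- mESC #1 to #4 Zscan4f was at 1.91, 0.0772, 0.0273 and 1.36 TPM. In Tet3-/- EpiLC #1, #3 and #4 it was at 0.934, 0.36 and 2.03 TPM. The 3 copies with the largest shares repeated the pattern of the sum: Zscan4c reached 0.687 and 0.675 TPM in Tet3-/- mESC #1 and #4 against 0.0787 and 0.0704 TPM in #2 and #3, and Zscan4d was at 0.624 and 0.593 against 0.0418 and 0.0155 TPM. Zscan4b was listed at 0 in 11 libraries, among them Tet3-/- mESC #1, the highest library for the sum.

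Tcstv1 and Tcstv3, whose products are known for telomere lengthening in mESC, were 90.2% identical. Tcstv3 was at 0.946, 0.0962, 0 and 0.619 TPM in Tet3-/- mESC #1 to #4, the same high and low pairs as for Zscan4. It was at 0.236, 0.0859 and 0.138 TPM in XX mESC, 0.13, 0.212 and 0.135 TPM in XX EpiLC, and 0.271, 0 and 0.275 TPM in Tet3-/- EpiLC #1, #3 and #4. In XY cells it was at 0, 0.0394 and 0.035 TPM in mESC and was listed at 0 in all 3 EpiLC libraries. Tcstv3 thus stood lower in every XY library than in any wild-type XX library. Tcstv1 was at most 0.076 TPM and was listed at 0 in 10 libraries.

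Zfp352, a zinc finger gene of the 2-cell stage, was the member with the lowest maximum apart from Tcstv1 and the copies Zscan4a and Zscan4b. Its highest values, 0.21 and 0.124 TPM, were again in Tet3-/- mESC #1 and #4. Tet3-/- EpiLC #4, with the second-highest Zscan4 sum, had 0.0386 TPM of Zfp352, and the other libraries had at most 0.0562 TPM.

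**Figure D2:**
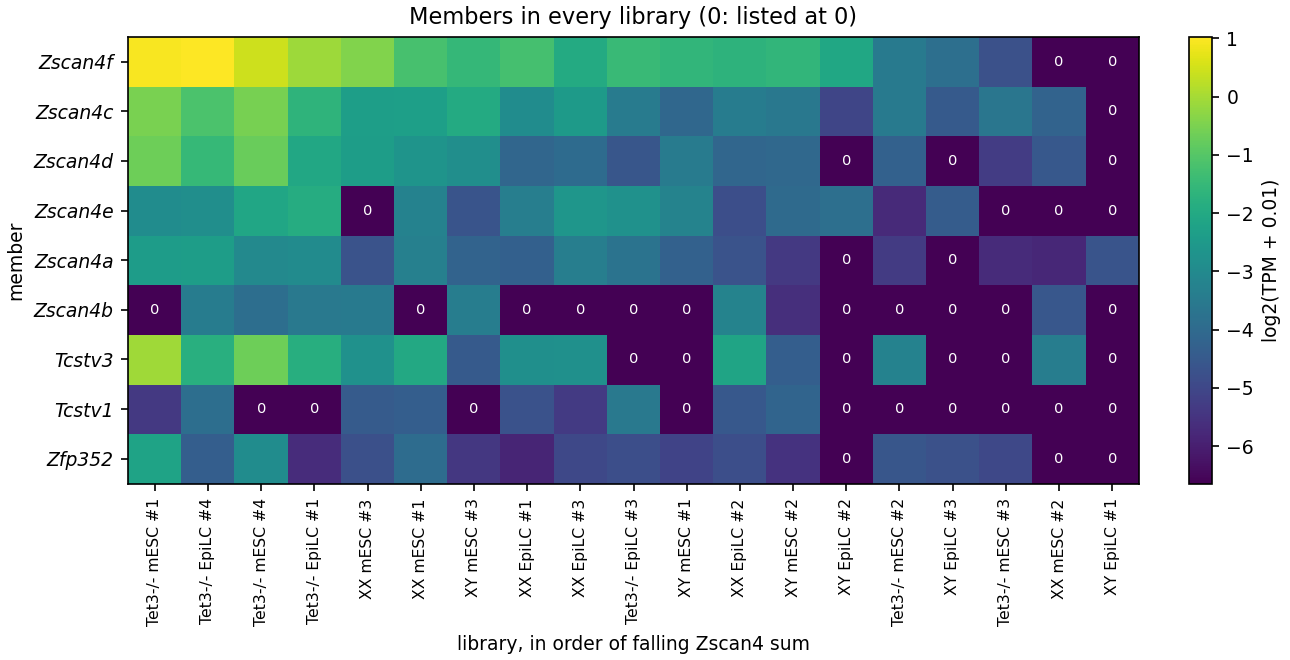
Level of each of the 9 members, as log2(TPM + 0.01) on the colour scale, in the 19 libraries ordered from the highest to the lowest Zscan4 sum; a 0 marks a value listed at 0. Zscan4f, Zscan4c, Zscan4d and Tcstv3 fall from left to right together, whereas Zscan4b and Tcstv1 are at 0 in 11 and 10 libraries.

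Over the 19 libraries the log2(TPM + 1) of each copy was compared with that of the sum of the other copies, as a description. Pearson's r was 0.935 for Zscan4f, 0.927 for Zscan4c, 0.92 for Zscan4d, 0.895 for Zscan4a, 0.656 for Zscan4e and 0.416 for Zscan4b. Against the whole Zscan4 sum r was 0.84 for Tcstv3, 0.7 for Zfp352 and 0.264 for Tcstv1. The copies share reads, and all points share a library's depth and scaling. The 5 tested genes outside the members with the highest r to the Zscan4 sum were Gm21761 (0.948), AC127331.6 (0.867), Gm6763 (0.839), Gm48388 (0.774) and Gm5039 (0.731). Gm21761, on chromosome 13 near Tcstv1, shares 31-base words with Tcstv3, and 12.3% of its 31-base words were found in no other gene. Without the 2 libraries farthest from the median Zscan4 sum, Tet3-/- mESC #1 and Tet3-/- EpiLC #4, its r was 0.947. It was at 1.56, 0.255, 0.0621 and 2.15 TPM in Tet3-/- mESC #1 to #4 and at 1.45, 0.211 and 1.74 TPM in Tet3-/- EpiLC #1, #3 and #4. As Gm21761 was picked for its likeness to the Zscan4 sum over these same libraries, these values are no separate case of its pattern.

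**Figure D3:**
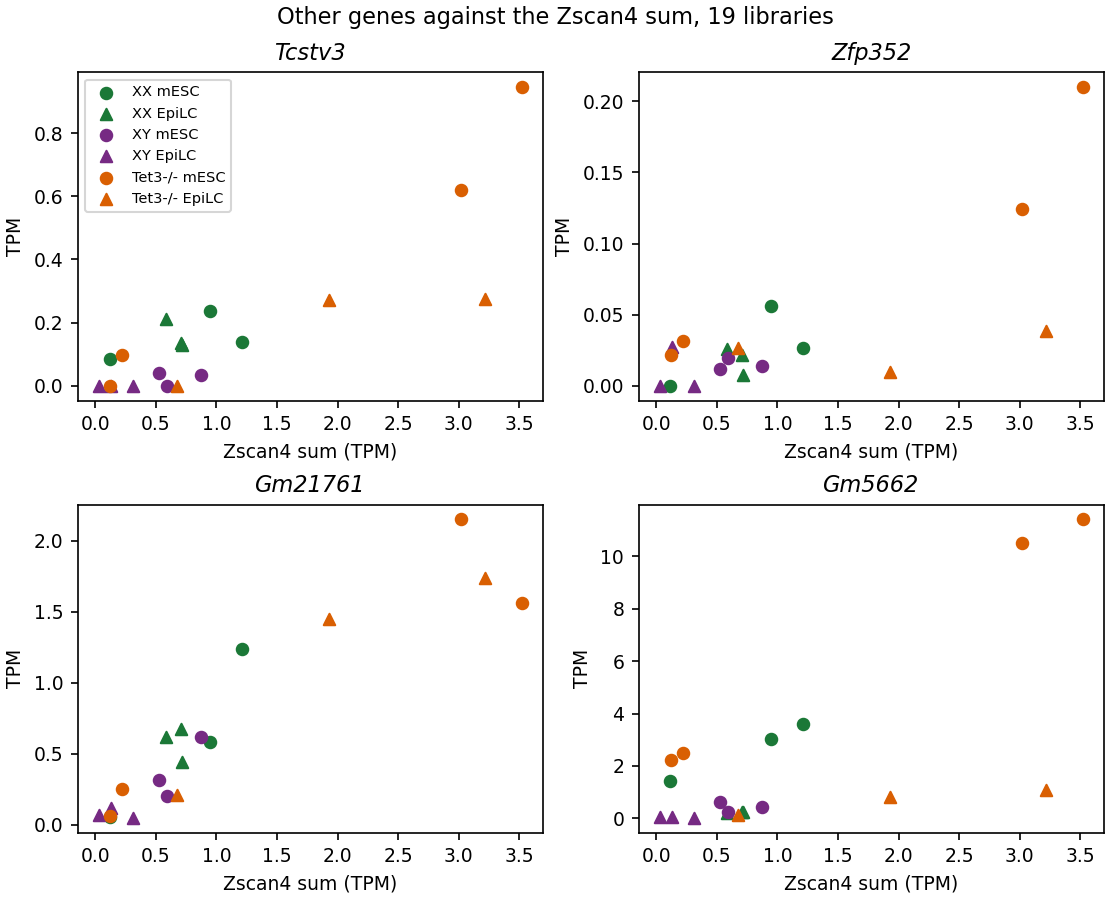
TPM of Tcstv3, Zfp352, Gm21761 and Gm5662 (vertical axes) against the Zscan4 sum in TPM (horizontal axes) in the 19 libraries, coloured by genotype, with circles for mESC and triangles for EpiLC. Gm21761, picked for its likeness to the sum, follows it in both states, whereas Tet3-/- EpiLC #4 has a sum of 3.22 TPM with only 1.1 TPM of Gm5662.

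First, EpiLC were set against the mESC of their own genotype. In XX cells all 9 members overlapped between the states, where 26.0% of 46217 genes with a value above 0 did not. For Zscan4f limma gave a log2 fold change of -0.04 (SE 0.34, adjusted p = 0.957), with a 95% interval from -0.75 to 0.68. limma called 31.3% of the 14972 tested genes in this comparison and not this member. With each library left out in turn the value ranged from -0.25 to 0.14, so its sign was not fixed.

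In XY cells the Zscan4 sum fell from 0.662 to 0.157 TPM on average, without overlap. Zscan4c, Zscan4d and Zscan4f were lower in every EpiLC than in every mESC library, 3 of 9 members where 6.6% of genes were lower without overlap. These 3 copies share sequence, so their falls are not separate observations. Zscan4f was at 0.319, 0.322 and 0.336 TPM in XY mESC and 0, 0.23 and 0.0601 TPM in XY EpiLC. Its log2 fold change in limma was -0.28 (SE 0.34, adjusted p = 0.505), where 50.5% of tested genes were called. Fitted on the XY libraries only, where the spread of the other groups does not enter, the same change had an adjusted p of 0.0451 in limma, and adjusted p over all alternatives ran from that value to 0.661. Naive pluripotency genes moved the same way, with a sum of 422 to 858 TPM in XY mESC and 85.0 to 92.7 TPM in XY EpiLC. Their sum also fell where all 9 members overlapped between the states. It was 432 to 709 TPM in XX mESC and 83.6 to 93.2 TPM in XX EpiLC. In Tet3-/- cells it was 580 to 691 TPM in mESC and 28.5 to 69.2 TPM in EpiLC. The part of these genes in the XY change of Zscan4 was not tested.

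In Tet3-/- cells all 9 members overlapped between the states, where 18.9% of genes did not. Zscan4f had a log2 fold change of 0.27 (SE 0.32, adjusted p = 0.57, limma), with an interval from -0.40 to 0.93, and limma called 35.1% of tested genes. Without Tet3-/- EpiLC #4 the value was -0.03. The change did not differ detectably from that in XX cells, with a difference of 0.30 (SE 0.47, adjusted p = 0.84, limma; 0.174% of genes called) and an interval from -0.67 to 1.28. The XX and XY changes of Zscan4f differed by 0.24 (SE 0.48, adjusted p = 0.765, limma; 16% of genes called), and the XX libraries are shared by these comparisons.

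The mutant was compared with XX cells of the same line label. In mESC the Zscan4 sum averaged 1.72 TPM in Tet3-/- and 0.76 TPM in XX libraries, yet all 9 members overlapped, where 5.28% of genes did not. Zscan4f had a log2 fold change of 0.30 (SE 0.32, adjusted p = 0.799, limma; 0.601% of genes called), with an interval from -0.37 to 0.96. In EpiLC the sum averaged 1.94 TPM in Tet3-/- and 0.67 TPM in XX libraries, and all members overlapped, where 10.9% of genes did not. Zscan4f had a log2 fold change of 0.60 there (SE 0.34, adjusted p = 0.659, limma; 1.08% of genes called), with an interval from -0.11 to 1.31. For the sum, #1 and #4 were above every XX library in both states. In mESC #2 and #3 were below XX libraries 1 and 3, and in EpiLC #3, at 0.674 TPM, lay within the XX range. Not every member followed the sum: Zscan4b was at most 0.058 TPM in Tet3-/- mESC and 0.0787 TPM in XX mESC, and Tcstv1 at most 0.014 and 0.039 TPM.

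Leaving out single libraries moved the log2 difference of the sum, 0.40 in mESC, between 0.06 (without Tet3-/- #1) and 0.73 (without #3). The Zscan4f value of 0.30 in mESC moved between 0.03 without #1 and 0.53 without #3. It was also 0.08 without XX mESC 2, 0.48 without XX mESC 3, 0.50 without #2 and 0.13 without #4. The EpiLC value of 0.60 was 0.30 without #4 and 0.88 without #3.

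Markers of cell state moved with the split in EpiLC. The summed TPM of the 10 naive genes was 28.5, 69.2 and 30.4 in Tet3-/- EpiLC #1, #3 and #4, and that of 8 formative genes was 53.8, 212 and 53.0. Tet1, which encodes another TET dioxygenase, was at 5.31, 19.7 and 5.11 TPM, and at 13.0 to 18.5 TPM in XX EpiLC. The 7 trophoblast markers summed to 7.01, 30.8 and 6.34 TPM, and the 7 primitive endoderm markers to 4.96, 16.0 and 2.95 TPM. Library #3, low for Zscan4, was thus the highest of the 3 for all of these. In Tet3-/- mESC #1 to #4 the naive sum was 580, 589, 691 and 683 TPM, without the high and low pairs of Zscan4. The primitive endoderm sum had the same pairs there, at 4.17, 0.953, 1.16 and 4.7 TPM, and in XX mESC it was lowest in library 2 as well, at 5.49, 1.57 and 8.89 TPM. The sum of the 7 fibroblast markers also had these pairs, at 2.06, 0.796, 0.725 and 1.69 TPM. In XX mESC it was 0.886, 1.21 and 1.15 TPM, highest in library 2. Of the 7 fibroblast markers 1 passed the filter, and of the 7 primitive endoderm markers 3 did. Col3a1, Dcn and Lum of the former and Sox17, Sox7 and Foxa2 of the latter were very low in every Tet3-/- mESC library. These low sums therefore do not show that either list as a whole had the pairs. Pou5f1 and Sox2, taken as 2 pluripotency markers, went the other way from Zscan4. They summed to 338, 438, 467 and 372 TPM in Tet3-/- mESC #1 to #4. In XX mESC they summed to 241, 569 and 298 TPM, highest in library 2. In Tet3-/- EpiLC #1, #3 and #4 they summed to 143, 356 and 171 TPM. The part of these markers in the Zscan4 levels was not tested.

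XX and XY cells differed most visibly as EpiLC. Zscan4c, Zscan4d, Zscan4f, Tcstv1 and Tcstv3 were higher in every XX than in every XY EpiLC library, 5 of 9 members where 4.69% of genes were higher without overlap. The first 3 share sequence, and so do the last 2. Of the 27 member values of XY EpiLC 19 were listed at 0. Zscan4f was at 0.415, 0.301 and 0.246 TPM in XX EpiLC, above the XY EpiLC values given before. Its log2 fold change was 0.27 (SE 0.34, adjusted p = 0.517, limma; 47.2% of genes called), and the fit of these groups alone gave an adjusted p of 0.0333 in limma, in a range over the alternatives up to 0.687. Over all genes tested in this comparison the median log2 fold change was -0.59, towards higher values in XY EpiLC, opposite in sign to the members. Formative pluripotency genes had a summed TPM of 48.5 to 59.4 in XX EpiLC and 304 to 385 in XY EpiLC, and their part in the difference was not tested. In mESC Tcstv3 alone of the 9 members was higher in XX without overlap, where 6.2% of genes were. Zscan4f had a log2 fold change of 0.03 there (SE 0.34, adjusted p = 0.973, limma; 14.2% of genes called).

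**Figure D4:**
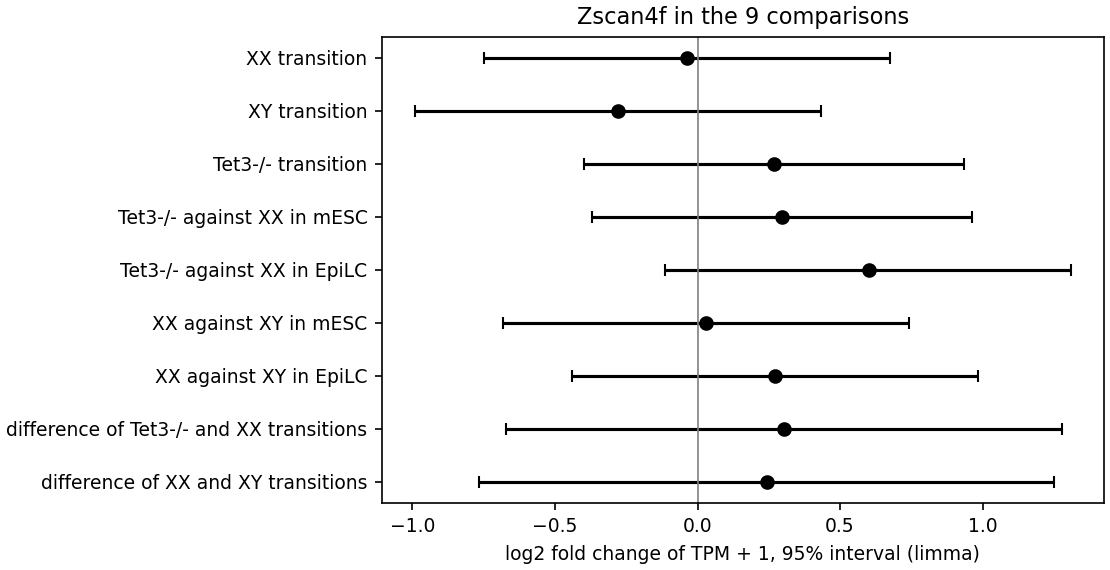
Log2 fold change of Zscan4f TPM + 1 (horizontal axis) in the 9 comparisons, with 95% intervals from limma. Every interval includes 0, and the largest estimate, 0.60 for Tet3-/- against XX EpiLC, runs from -0.11 to 1.31 (0.30 without Tet3-/- EpiLC #4, 0.88 without #3).

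Across the 9 comparisons limma called 0 of 1 member tested, and 0 had an unadjusted p under 0.05. With no filter all 9 members entered limma, and 0 of 81 values were called, 3 having an unadjusted p under 0.05, with a lowest adjusted p of 0.112. Among all genes that fit called 11%, 23% and 13.3% in the transitions of XX, XY and Tet3-/- cells, 0.119% and 0.325% between Tet3-/- and XX mESC and EpiLC, and 4.59% and 17.9% between XX and XY mESC and EpiLC. For the differences of the Tet3-/- and XX and of the XX and XY transitions it called 0.0606% and 6.17%.

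Other genes known from 2-cell-like cells were taken as a list of 35, of which 9 passed the filter. Obox6, Gm2016, Gm2022, Gm8300, BB287469 and Sp110 reached 1 TPM in XX or Tet3-/- mESC libraries only. Gm5662 did so in EpiLC only in Tet3-/- #4, at 1.1 TPM, and in no XY library. For these genes the filter itself favoured falls to EpiLC and higher values in XX than in XY mESC. The counts and medians below rest in part on this, and the shares over all tested genes are no like baseline. In the XX transition 5 of the 9 fell, where 12.2% of tested genes fell, and 0 rose, with a median log2 fold change of -0.90 against 0.14 over all tested genes. The count was 2 without XX mESC 1, XX mESC 3 or XX EpiLC 2, and 3 without XX EpiLC 3. In the Tet3-/- transition 6 fell and 0 rose, where 21.5% of genes fell, with a median of -1.17 against -0.13. In the XY transition 1, Obox6, fell, where 9.36% of genes did, with a median of -0.34 against 0.54, and without XY mESC 2 or any XY EpiLC library the count was 0. Against XX cells 0 of 9 were called by limma in Tet3-/- cells in either state, with medians of 0.28 in mESC and 0.25 in EpiLC against 0.19 and -0.07 over all genes. At an unadjusted p under 0.05 there were 3 in mESC and 0 in EpiLC. XX mESC had 3 of the 9 higher than XY mESC, where 6.43% of genes were. That count was 5 without XX mESC 2 and under both rescalings, and 1 without any other library of these groups.

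Most of the list genes that fell are from a family on chromosome 12 related to the translation factor EIF1A. Gm5662 was at 3.02, 1.42 and 3.61 TPM in XX mESC, and at 11.4, 2.51, 2.24 and 10.5 TPM in Tet3-/- mESC #1 to #4. Tet3-/- mESC #1 and #4, the high pair for Zscan4, were also the high pair here, and XX mESC 2 was the lowest XX mESC library for both. How many of all genes have this order was not counted. In EpiLC Gm5662 was at 0.244, 0.213 and 0.239 TPM in XX and 0.823, 0.124 and 1.1 TPM in Tet3-/- cells. It fell with a log2 fold change of -1.53 in XX (SE 0.42, adjusted p = 0.00823, limma) and -1.96 in Tet3-/- cells (SE 0.39, adjusted p = 0.000529, limma), and it was called in all 14 and 15 alternatives run for these comparisons. Zscan4f, at -0.04 and 0.27 in the same comparisons, was not called, and the difference between the genes was not tested. Gm2016, of the same family, also fell, with log2 fold changes of -1.17 and -1.73. In the XX transition its call held in 10 of 14 alternatives and was lost with no filter and without XX mESC 1, XX mESC 3 or XX EpiLC 2 (adjusted p up to 0.0729, limma). Only 10.9% of the 31-base words of Gm5662 and 10.8% of those of Gm2016 were in no other gene, so values within the family are uncertain as well. For BB287469 and Gm2022 the share was 1.48% and 0%, and for Gm8300, which shares words with the others, 56.0%. The list counts above hold several of these genes, so those calls are not separate observations.

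Obox6, an oocyte homeobox gene, had another pattern. It was at 3.95, 4.58 and 5.2 TPM in XX mESC and at 2.59, 2.75, 3.46 and 3.23 TPM in Tet3-/- mESC #1 to #4, with no high and low pairs. It was listed at 0 in all XX and Tet3-/- EpiLC libraries and was at most 0.404 TPM in XY mESC. It fell in the XX transition, with a log2 fold change of -2.47 (SE 0.13, adjusted p = 1.55e-10, limma). In the Tet3-/- transition the log2 fold change was -2.0 (SE 0.12, adjusted p = 5.78e-10, limma). Sp110, a nuclear body gene, was at 3.47, 0.592, 0.0929 and 3.02 TPM in Tet3-/- mESC #1 to #4, the pairs seen for Zscan4, and was not called in any of the 9 comparisons. Of the list genes under the filter, Duxf3, which encodes DUX, had group means from 0.0932 to 0.371 TPM and was highest in XY EpiLC, the group lowest for Zscan4. Within Tet3-/- cells it was at 0.315, 0.157, 0.0305 and 0.342 TPM in mESC #1 to #4. In Tet3-/- EpiLC #1, #3 and #4 it was at 0.307, 0.104 and 0.438 TPM. Those are the high and low libraries of the Zscan4 sum in both states. In XX mESC 1 to 3 it was at 0.161, 0.144 and 0.142 TPM, without library 2 standing apart.

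**Figure D5:**
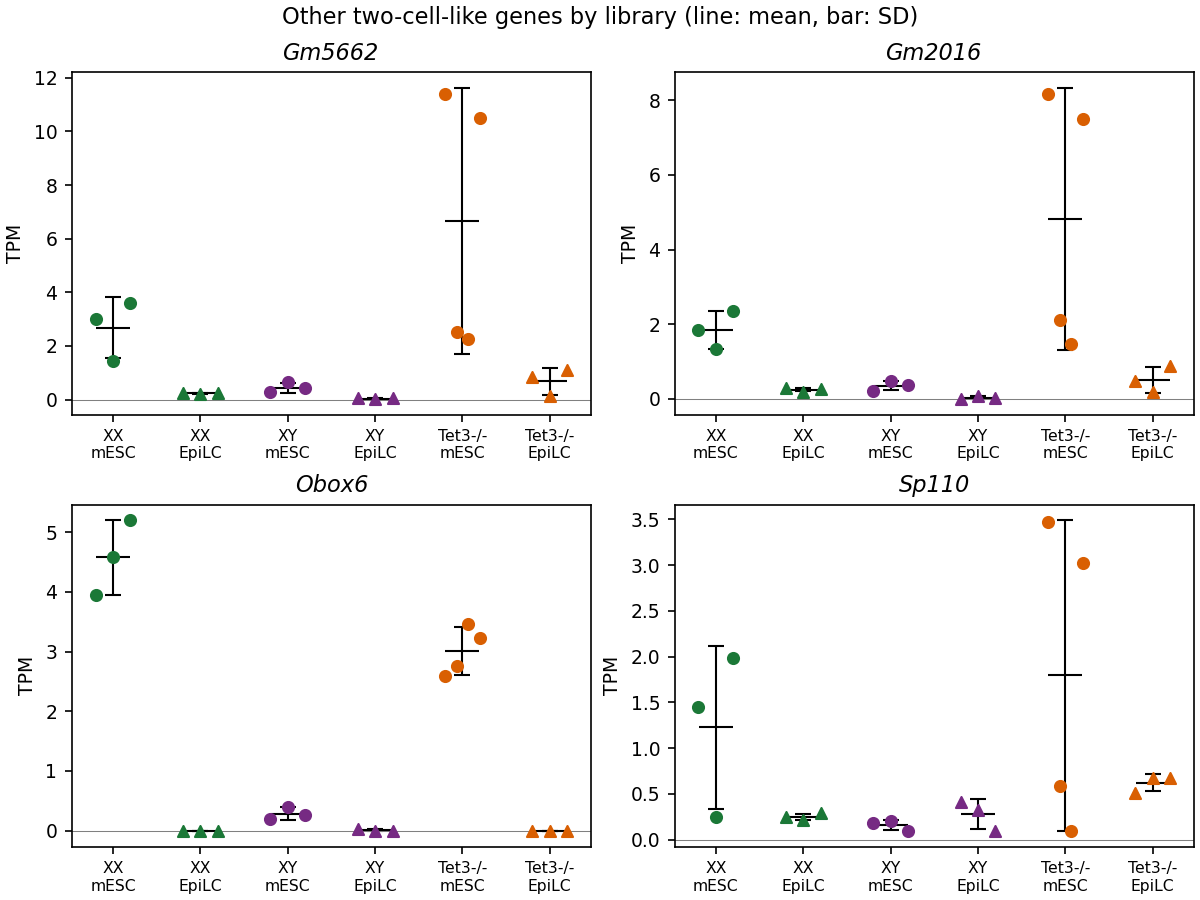
TPM of Gm5662, Gm2016, Obox6 and Sp110 (vertical axes) in the libraries of the 6 groups, with the mean as a line and the SD as a bar. In Tet3-/- mESC the first pair and Sp110 have a high and a low pair of libraries, while Obox6 lies between 2.59 and 3.46 TPM.

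Known activators of the programme were Duxf3, Dppa2, Dppa4, Nelfa and Tbx3, and the last 4 passed the filter. Tbx3, a T-box factor of naive cells reported to raise Zscan4, fell in the transitions of XX, XY and Tet3-/- cells, with log2 fold changes of -3.04, -3.82 and -3.68 (adjusted p at most 1.84e-07, limma). Dppa4 rose in the XX transition, by 1.47 (SE 0.28, adjusted p = 0.000402, limma), and its changes in XY and Tet3-/- cells, 0.09 and 0.30, did not pass the test. Nelfa rose in the XY transition, by 0.92 (SE 0.26, adjusted p = 0.00703, limma), and was at -0.02 and -0.21 in XX and Tet3-/- cells without passing it. Without XY mESC 2 the rise of Nelfa was 0.69 and was no longer called (adjusted p = 0.0523, limma). Dppa2, which acts with Dppa4 upstream of Dux, was at 9.86, 5.5 and 13.1 TPM in XY mESC and 0.347, 0.457 and 0.471 TPM in XY EpiLC, a fall of 2.81 on the log2 scale (SE 0.35, adjusted p = 2.69e-06, limma). It fell in the Tet3-/- transition too, by 1.31 (SE 0.33, adjusted p = 0.00401, limma), and did not pass the test in the XX transition (-0.49, SE 0.35, adjusted p = 0.333, limma). Between Tet3-/- and XX cells limma called 0 of the 4 in either state, with log2 fold changes from -0.81 to 0.41 and 2 at an unadjusted p under 0.05, both in EpiLC. In Tet3-/- EpiLC #3, the library lowest of the 3 for Zscan4, Dppa2 was at 3.06 TPM against 0.259 and 0.588 TPM in #1 and #4.

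Known repressors, 19 chromatin and methylation factors such as Kdm1a, Trim28, Setdb1 and Rif1, all passed the filter. Against XX cells 0 of the 19 were called by limma in Tet3-/- cells in either state, and 2 had an unadjusted p under 0.05, both in EpiLC. In XX against XY EpiLC 12 were lower, where 42.0% of genes were, and 1, Tet1, was higher, with a median of -0.995 against -0.585 over all genes. The 12 became 4 with median-of-ratios scaling and 3 with rescaling over protein-coding genes. They became 3 without XX EpiLC 1 and 4 without XY EpiLC 2 or 3. Of 12 telomere and recombination genes 11 passed the filter, and limma called 0 between Tet3-/- and XX cells in either state, with 1 at an unadjusted p under 0.05, in EpiLC. In XX against XY EpiLC 5 of the 11 were lower, near the 42.0% over all genes, and 2, Smc1b and Terc, were higher, where 5.23% of genes were. Under either rescaling 2 were lower. Terc, the telomerase RNA, kept its call in 9 of 15 alternatives and lost it with no filter at either pseudocount and without XX EpiLC 1, XX EpiLC 2, XY EpiLC 1 or XY EpiLC 3 (adjusted p up to 0.128, limma). The 5 became 3 without XX EpiLC 1, XX EpiLC 2, XY EpiLC 2 or XY EpiLC 3.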

How the data were processed

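RNA was sequenced from stranded, rRNA-depleted total RNA libraries made from 200 ng of RNA with an integrity number of at least 9, per the labels' protocols. FastQC 0.11.7, Trimmomatic 0.35, Salmon 1.1.0 and the build GRCm38 are named in the submitters' processing notes. The deposited table holds TPM for 140948 transcripts in 19 columns, each summing to 1000000, which keeps no depth and allows no counting interval. TPM were summed per gene with GENCODE M21: 139357 transcripts matched with their version, 495 without it, and 1096 (0.045% to 0.215% of TPM) were left out.

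The 14972 genes that reached 1 TPM in 3 or more libraries were fitted as log2(TPM + 1) with limma 3.58.1 (R 4.3.3) over all 19 libraries and 6 groups, with 9 contrasts and eBayes with a trend. Within each contrast the Benjamini-Hochberg adjustment covered all tested genes, and an adjusted p under 0.05 was called. A log2 fold change of TPM + 1 understates changes of low genes. The Zscan4 sum was given no p. Copy similarity was computed from the GENCODE transcripts with Biopython 1.88.

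The fit was tested on simulated data in which 200 of 14972 genes were changed. It found 92.5% of them at 2 log2 units in the XX transition, 97.5% in Tet3-/- against XX mESC and 74.5% in the difference of the Tet3-/- and XX transitions. At 1 log2 unit it found 16.5%, 34% and 1%. The changed genes were drawn from those with a mean log2(TPM + 1) above 2. Zscan4f, at most 2.03 TPM, lies below that in every library, so these rates do not apply to it or to any other member.

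Named genes are the 9 members, genes of 4 lists (2-cell-like, activators, repressors, telomere) and the 5 tested genes most correlated with the Zscan4 sum. Members and lists were chosen with earlier results of these data known. As alternatives the pseudocount was set to 0.1, the filter was dropped or raised to 5 TPM, TPM were rescaled by median-of-ratios or over nuclear protein-coding genes, only the compared groups were fitted, the trend was left out, a replicate block was added, calls were limited to an absolute log2 fold change of 1 or more, and each library was left out. No filter together with a pseudocount of 0.1 was added after seeing the data. A fit without Tet3-/- #1 and #4 was also run after seeing the data and is not reported, since those libraries had been picked by their measured level.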

Additional observations from a re-analysis of the deposited data

Results flagged for a closer look

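In groups of 4 libraries, which only Tet3-/- mESC are, a value far from the others was looked for in 10 cases. Where values do not tie, chance gives such a value in about 1 in 20 groups. Zscan4b stood out in Tet3-/- mESC #4 at 0.058 TPM and Tcstv1 in #1 at 0.014 TPM, the other 3 libraries being listed at 0 for each gene.

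The change from mESC to EpiLC differed between XX and XY cells, by the test of the difference in limma, for 6 of the 43 list genes tested (14.0%), no larger a share than the 16.0% of all tested genes. Dppa2 and Dppa4 had a higher change in XX cells, by 2.32 (adjusted p = 0.00331) and 1.38 (adjusted p = 0.0218) on the log2 scale. Tet1 (-2.81), Obox6 (-2.13), Dmc1 (-1.07) and Terf2ip (-0.995) had a lower one. The call of Terf2ip held in 10 of 21 alternatives (adjusted p up to 0.0742, limma) and was lost with the replicate block, with no filter and a pseudocount of 0.1, and without any 1 of XX mESC 2 or 3, XY mESC 1 or 2, each XX EpiLC library and XY EpiLC 2 or 3. That of Dmc1 was lost with no filter and a pseudocount of 0.1 and without XX EpiLC 1 or XY EpiLC 3, and that of Dppa4 without XX EpiLC 3 or XY EpiLC 1. Dppa2 and Tet1 were called in all 21 alternatives and Obox6 in all 20. Tet1 was at 16.2 to 29.9 TPM in XX mESC and 0.423 to 0.546 TPM in XY mESC.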

How the results depend on the processing

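The count of members called stayed at 0 in the 69 values with single libraries left out (0 to 0) and in 79 other alternative values. It was 1, Zscan4f, in the XY transition and 1, the same gene, in XX against XY EpiLC when only the groups compared were fitted. A TPM minimum of 5 left no member to test and gave no value. Zscan4f, called in no main comparison, changed sign with a pseudocount of 0.1 to 0.23 in the XX transition and -0.27 in XX against XY mESC, with and without the filter. With single libraries left out it ranged from -0.25 to 0.14 in the XX transition, including 0.00156 without XX mESC 1, 0.143 without XX mESC 3 and 0.00466 without XX EpiLC 3. In XX against XY mESC it ranged from -0.15 to 0.25, including -0.00933 without XX mESC 1 and -0.151 without XX mESC 3. In the Tet3-/- transition it ranged from -0.03 to 0.55, with -0.0331 without EpiLC #4. The log2 difference of the Zscan4 sum was -0.52 in the XY transition and 0.54 in XX against XY EpiLC, and -1.09 and 1.3 with rescaling over protein-coding genes. The cause of these changes was not tested. Libraries with the same number did not deviate together throughout (r from -0.0488 to 0.303), so the numbers were not taken as pairs, and with the replicate block 0 members were called in each comparison. Over the 14972 tested genes Tet3-/- EpiLC #1 and #4 had r of 0.271 and 0.282 with mESC #1, and -0.247 and -0.241 with mESC #3. EpiLC #3 had -0.344 with mESC #1 and 0.303 with #3, while EpiLC #4 had -0.0202 with mESC #4. The leaning of Tet3-/- libraries was thus not limited to the members. Unknown depth limits every value listed at 0.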
